A study of Mus musculus with 2 samples.

Results

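The genes for the proteins of the cytosolic ribosome were compared between naive CD4 and naive CD8 T cells, with the large subunit set against the small. Members were taken by symbol. These were Rpl or Rps with a number, alone or followed by a single letter (a, l, x or y) and further digits. Rplp0, Rplp1, Rplp2 and Rpsa were taken too. Rps6k kinases, pseudogene rows such as Rpl31-ps12 and longer names such as Rpl36al were left out. This gave 84 of 23167 gene symbols, 51 of the large and 33 of the small subunit. RNA came from Foxp3-GFP mice on a C57/BL6 background, which carry a reporter that marks Foxp3-expressing regulatory T cells. Naive cells, high in CD62L, low in CD44 and negative for CD25 and for the reporter, were sorted from spleen and lymph nodes and the labels give no other difference between the groups than CD4 or CD8. Ribosomal RNA was depleted from total RNA and there was 1 library per cell type. The sources used here do not give the number, age or sex of the animals. No difference reported has a replicate check and no p-value can be given.

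The small subunit holds the mRNA and reads its codons, and the large subunit joins the amino acids and threads the new chain through its exit tunnel. Each ribosome needs 1 copy of nearly every protein, so the cell makes the proteins of both subunits in step, and their mRNAs are among the most abundant of any cell. Most of these mRNAs begin with a run of pyrimidines, the 5′ terminal oligopyrimidine (TOP) motif, through which their translation is held back in resting cells and released by mTOR when a naive T cell is activated.

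Both subunits were higher in the CD8 library. With each library rescaled to the same sum of RPKM, 20 of the 81 compared genes were higher in CD4. The other 61 stayed higher in CD8, as did 23.0% of all compared genes. Levels are RPKM, reads per kilobase of gene and per 1000000 reads, so they can be compared between genes. The large subunit genes summed to 59417 RPKM in the CD4 library and 79007 in the CD8 library (1.33-fold), and the small subunit genes to 42774 and 56685 (1.33-fold). All other genes together were 1.11-fold higher in the CD8 library by their summed RPKM. The sum over the 51 large subunit genes divided by that over the 33 small subunit genes was 1.39 in each library. The median RPKM of the compared genes ran the other way, with the large over the small subunit at 0.888 in the CD4 and 0.894 in the CD8 library. Either ratio was nearly the same in both libraries. The genes of the rule made up 22.3% of all RPKM in the CD4 library and 25.6% in the CD8 library. In these bulk libraries, a higher share of ribosomal protein mRNA per cell and less RNA of other genes per cell cannot be told apart.

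**Figure D1:**
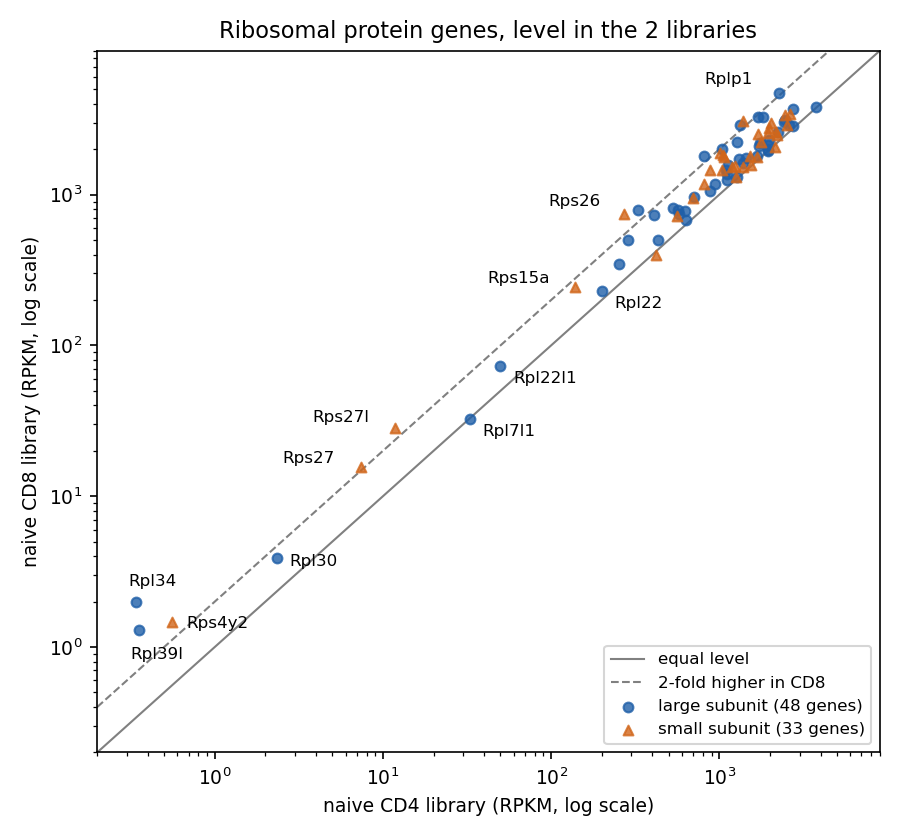
Each point is 1 ribosomal protein gene, with its RPKM in the naive CD4 library on the horizontal and in the naive CD8 library on the vertical axis, both on log scales, for 48 large and 33 small subunit genes. Most genes of both subunits lie above 100 RPKM and above the line of equal level, with a few far lower, such as Rps27, Rpl30 and Rpl34.

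The difference of a gene was taken as log2((CD4 RPKM + 1)/(CD8 RPKM + 1)), so a negative value is higher in CD8, for genes with at least 1 RPKM in at least 1 library. Of the 84 genes 81 were compared, 48 of the large and 33 of the small subunit. The log2 difference was below 0 in 46 of the 48 large and 31 of the 33 small subunit genes, beside 40.5% of all 10228 compared genes. The median log2 difference was -0.35 for the large subunit (interquartile range -0.66 to -0.21) and -0.44 for the small (-0.71 to -0.25), beside 0.08 for all compared genes. The large and small medians were 0.09 apart, a difference that was not tested. Rescaling each library to the same sum of RPKM moved the median of all genes by 0.21, and the members' medians to -0.14 and -0.23, with 61 of 81 genes below 0 and 20, Rpl12, Rpl18 and Rps4x among them, above it, where 23.0% of all compared genes were below 0. Measured from the median of all genes, the members' medians were -0.43 and -0.52, and all 81 genes lay below it.

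A difference of at least 2-fold, a log2 difference of 1 or more in size, was found toward CD8 in 5 large and 3 small subunit genes, beside 3.07% of all compared genes. With the libraries rescaled to the same sum, 4 of these stayed past 2-fold, Rps26, Rpl37, Rps27l and Rpl34, while the split over all genes went from 314 toward CD8 and 247 toward CD4 to 285 and 517. This rescaling raised the RPKM sums from 457587 (CD4) and 530342 (CD8) to 1000000, while the added 1 RPKM stayed the same. The added value therefore weighs less on low genes there. Rpl34 went from -1.15 to -1.44 and Rps27l from -1.19 to -1.02, so these 2 calls depend on the added value. No member was at least 2-fold higher in CD4, where 2.41% of all compared genes were. At 1.5-fold the counts toward CD8 were 13 large and 10 small subunit genes, beside 7.47%. The reads behind each value gave an exact (Clopper-Pearson) 95% interval for the ratio of the libraries, which covers counting error only. Where the gene length behind the RPKM was taken as a multiple of the true one, as it may be for genes such as Rps20, the reads are too many and the interval is too narrow. By this interval 46 large and 30 small subunit genes were higher in the CD8 library, beside 26.8% of all compared genes. Toward CD4 the interval placed no large and 2 small subunit genes, Rps23 among them, beside 44.7% of all compared genes.

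**Figure D2:**
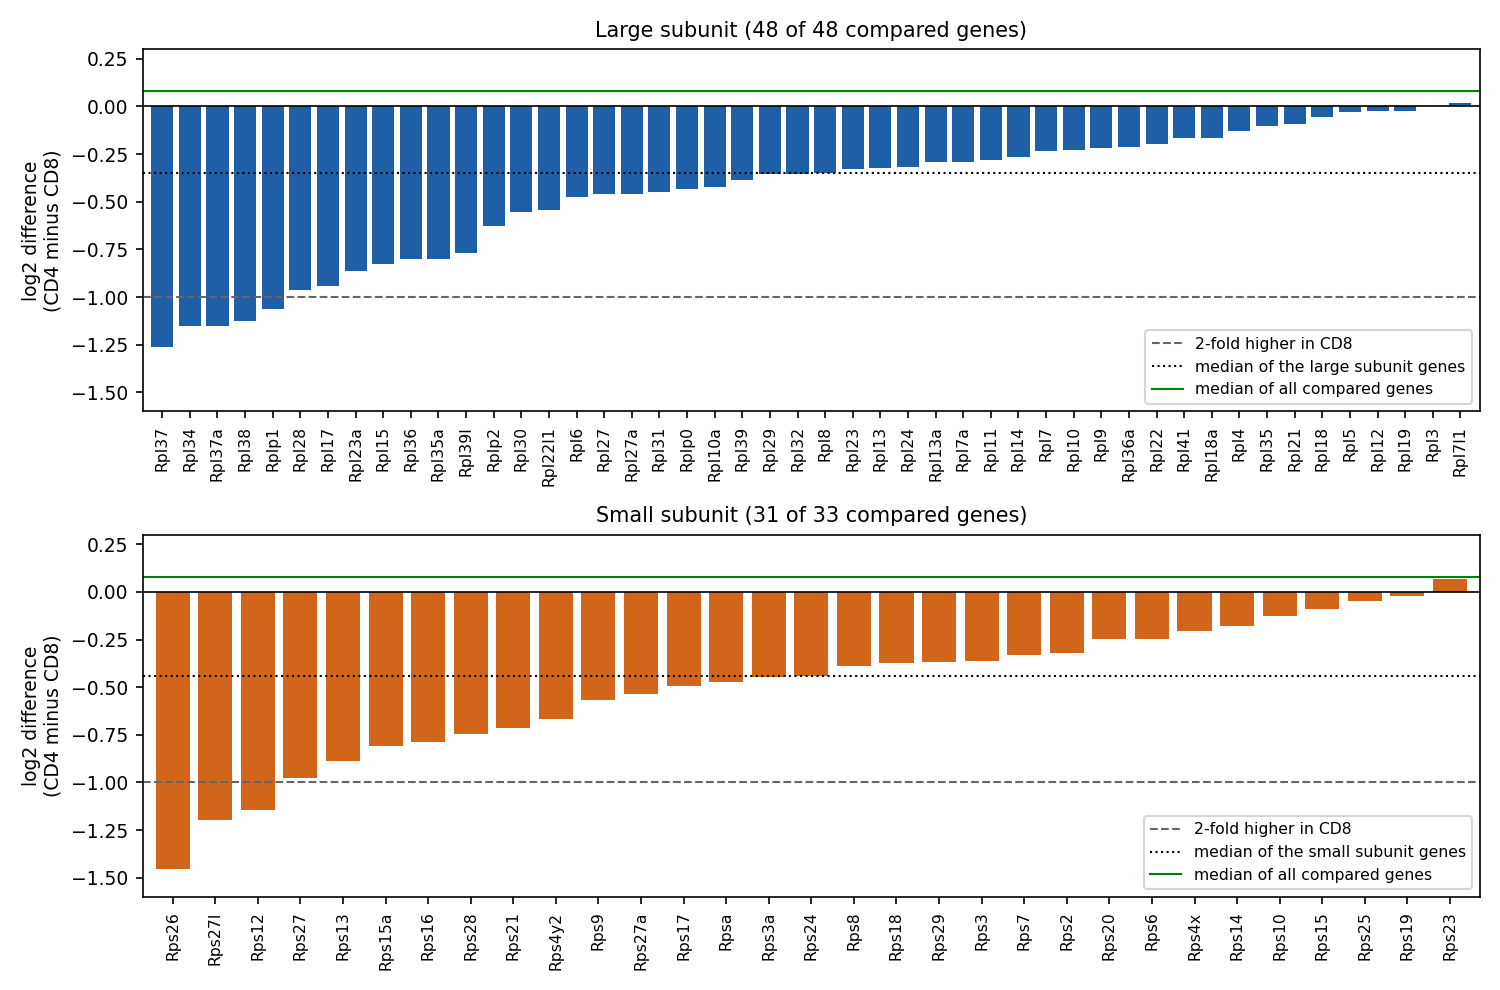
Bars give the log2 difference (CD4 minus CD8, with 1 RPKM added) of compared genes, in order, for the large subunit above (48 of 48 genes) and the small subunit below (31 of 33 genes). The dotted lines at -0.35 and -0.44 are the subunit medians, the green line at 0.08 the median of all compared genes, and the dashed line a 2-fold difference, which 5 large and 3 small subunit genes pass.

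In the small subunit, Rps26 stood farthest from equality. Rps26, which lies at the mRNA exit channel and touches the message ahead of the start codon, stood at 270.0 RPKM in the CD4 and 740.1 RPKM in the CD8 library (2.74-fold, 2.66 to 2.82). Rps12, a protein of the head, was at 1387 and 3073 RPKM (2.22-fold, 2.18 to 2.26). Rps27l, a paralog of Rps27 that p53 can induce, was far lower in level, at 11.9 and 28.4 RPKM (2.40-fold, 1.95 to 2.96). In each of the 3 genes the CD8 library was the higher one. Rps27 stayed just short of the size rule, with a log2 difference of -0.97 from 7.43 and 15.6 RPKM, because the added 1 RPKM shrinks the difference of a low gene. Rps13, the next in order, was at 1016 and 1878 RPKM (1.85-fold, 1.81 to 1.89).

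In the large subunit, Rpl37 led, with 330.9 RPKM in CD4 cells and 794.1 RPKM in CD8 cells (2.40-fold, 2.33 to 2.47). Rpl37a, like Rpl37 a small zinc-binding protein, was at 810.5 and 1801 RPKM (2.22-fold, 2.17 to 2.27). Rpl38, whose loss in mice disturbs the translation of Hox mRNAs and the patterning of the axial skeleton, was at 1320.4 and 2884 RPKM (2.18-fold, 2.14 to 2.23). Rplp1, an acidic protein of the stalk, was at 2269 and 4747 RPKM, the highest level of any member in the CD8 library. Rpl34 also passed the size rule, but at 0.341 and 1.98 RPKM, from 5 and 28 reads (5.81-fold, 2.21 to 19.3). Its log2 difference of -1.15 shrank to -0.39 with 5 RPKM added in place of 1, so this call rests on the size of the added value. That of Rps27l likewise went from -1.19 to -0.99, just short of the size rule. Just under the size rule were Rpl28 at -0.96 (1034 and 2017 RPKM) and Rpl17 at -0.94 (1694 and 3261 RPKM).

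At the other end, 4 genes had a log2 difference above 0, beside 59.5% of all compared genes, and all 4 lay below 0 when measured from the median of all genes. Rpl3, which reaches toward the peptidyl transferase centre, had 1949.6 RPKM in CD4 cells and 1949 RPKM in CD8 cells, level within counting error (CD4 over CD8 from 0.989 to 1.01). Rpl7l1, a paralog of Rpl7 that acts in ribosome assembly, was at 33.0 and 32.6 RPKM (CD4 over CD8 1.01, 0.953 to 1.08). Rps23, a protein of the decoding centre, was at 419.0 and 400.3 RPKM (1.05-fold higher in CD4, 1.02 to 1.07).

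Sequences at the transcription starts are shown to set the genes farthest apart beside those nearest to equality, since the TOP motif lies there. They are from the RefSeq promoter table of GRCm38.p6, which held 65 of the 84 genes. Each sequence runs 5′ to 3′ on the gene's strand, from 10 bases before to 20 bases after the annotated start, with its longest run of C and T in capitals. Of the 8 genes at least 2-fold higher in CD8, the 7 with an entry are:
Rps26 (chr10:128626487-128626516, minus strand): gcaagccgccggaTCCTCTTTCgagtcttg
Rpl37 (chr15:5116603-5116632, plus strand): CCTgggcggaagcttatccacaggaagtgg
Rps27l (chr9:66946076-66946105, plus strand): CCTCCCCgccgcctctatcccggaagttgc
Rpl34 (chr3:130730379-130730408, minus strand): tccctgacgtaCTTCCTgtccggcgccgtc
Rpl37a (chr1:72711250-72711279, plus strand): CTCgccggtctaaaaccgcgcatgcgcatt
Rps12 (chr10:23787190-23787219, minus strand): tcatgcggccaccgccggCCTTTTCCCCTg
Rpl38 (chr11:114668570-114668599, plus strand): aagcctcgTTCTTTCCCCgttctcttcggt

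The 7 genes with an entry whose log2 difference was nearest to 0 are:
Rpl7l1 (chr17:46782637-46782666, minus strand): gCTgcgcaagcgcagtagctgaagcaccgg
Rps19 (chr7:24884582-24884611, plus strand): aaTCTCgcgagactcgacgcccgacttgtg
Rpl19 (chr11:98026700-98026729, plus strand): aaacgCCCTCactgcgcatgtgcgccgcgg
Rpl12 (chr2:32961702-32961731, plus strand): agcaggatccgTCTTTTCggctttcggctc
Rpl5 (chr5:107900518-107900547, plus strand): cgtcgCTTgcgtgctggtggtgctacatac
Rps25 (chr9:44407704-44407733, plus strand): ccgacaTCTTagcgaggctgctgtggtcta
Rpl18 (chr7:45718061-45718090, plus strand): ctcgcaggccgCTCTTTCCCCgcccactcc

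Runs of at least 8 pyrimidines appear in each set, in Rps26, Rps12 and Rpl38 of the first and in Rpl18 of the second. The annotated start can differ by some bases from the one used in these cells, so a wider window, from 30 bases before to 50 after the start, was searched on the gene's strand. A run of at least 8 pyrimidines lay there in 48 of the 65 genes (73.8%), in 77.5% of the large and 68% of the small subunit genes, beside 28.9% of the 27025 promoters in the table. The motif CTTTC, which can be part of such a run, lay on the same strand of the same window in 46.2% of the genes, beside 10.1% of all promoters. The motif CCGGAAG, searched on both strands of the whole 300-base entry, was in 38.5% beside 9.12%, and AAGATGGC in 7.69% beside 2.88%. Among compared genes the median log2 difference was -0.35 with a pyrimidine run (46 genes) and -0.43 without (16 genes). It was -0.45 with CTTTC (29 genes) and -0.36 without (33 genes), and -0.45 with CCGGAAG (24 genes) and -0.32 without (38 genes). With AAGATGGC it was -0.80 (5 genes) and without it -0.37 (57 genes). These medians are a description, and whether they differ was not tested.

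The P stalk, an arm of the large subunit that recruits the elongation factors, spanned most of the range of its subunit. Its core protein Rplp0 had 2737 RPKM in CD4 cells and 3693 RPKM in CD8 cells (1.35-fold, 1.34 to 1.36), and its acidic partner Rplp2 stood at 529 and 819 RPKM (1.55-fold, 1.497 to 1.601). Rplp1, which pairs with Rplp2 on the stalk, was 2.09-fold higher in CD8 (2.06 to 2.12). Rpl12, at the base of the stalk, was at 3735 and 3798 RPKM (1.02-fold, 1.01 to 1.03) and was the highest member in the CD4 library. The median log2 difference of the 4 genes was -0.53. Within the stalk, Rplp1 passed from below Rplp0 and Rpl12 in the CD4 library to above them in the CD8 library.

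Rpl5 and Rpl11 form the 5S particle with the 5S ribosomal RNA, and it also binds Mdm2 when ribosome assembly is disturbed. Rpl5 was near level, with 1279 RPKM in CD4 cells and 1306 RPKM in CD8 cells (1.02-fold, 1.01 to 1.03). Rpl11 was higher in CD8, at 1447 and 1756 RPKM (1.21-fold, 1.19 to 1.24). The median log2 difference of the 2 genes was -0.15. It was 0.06 with the libraries rescaled to the same sum, where Rpl5 lay above 0 and Rpl11 below. The genes of all 8 compared proteins that line or surround the exit tunnel were higher in CD8, with a median of -0.29. So were 77 of all 81 compared members and 40.5% of all compared genes. With the libraries rescaled to the same sum, Rpl4, Rpl19, Rpl22 and Rpl35 of the tunnel were not higher in CD8. Under it 61 of the 81 members and 23.0% of all compared genes were. Among the tunnel genes Rpl23a, a docking site for factors that meet the new chain, had the highest mean level. It was at 1809.6 and 3289 RPKM (1.82-fold, 1.79 to 1.85), and Rpl17 had the largest difference of the tunnel genes. Rpl19, on the same face of the subunit, had a log2 difference of only -0.02.

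In the small subunit, the genes of all 14 head proteins had a log2 difference below 0, with a median of -0.37. Also below 0 were 31 of all 33 small subunit genes and 40.5% of all compared genes. Of the head genes Rps19 was level within counting error (1.01-fold, 0.995 to 1.03). Under that rescaling Rps10, Rps15, Rps19 and Rps25 of the head lay above 0, where 23.0% of all compared genes were below 0. The highest in level was Rps18 at 2643 and 3421 RPKM (1.29-fold, 1.28 to 1.31). Rps16 was at 1058 and 1828 RPKM (1.73-fold, 1.70 to 1.75), the largest difference of the head after Rps12. Rps20 was at 2185 and 2597 RPKM (1.19-fold, 1.18 to 1.20). Of the 17 body and platform genes, with a median of -0.44, 15 were higher in CD8, beside 40.5% of all compared genes. Rps23 was not, joined under that rescaling by Rps14 and Rps4x. Rps3a was at 2470.5 and 3368 RPKM (1.36-fold, 1.35 to 1.38) and Rps4x at 2513 and 2898 RPKM (1.15-fold, 1.14 to 1.17). Rps6, the substrate of the S6 kinases downstream of mTOR, was at 1513 and 1795 RPKM (1.19-fold, 1.17 to 1.20).

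Of the other high members of the large subunit, Rpl32 lay at its subunit's median difference and Rpl18 nearer to equality. Rpl32 was at 2467 and 3150 RPKM (1.28-fold, 1.26 to 1.30), and Rpl18 at 2746 and 2856 RPKM (1.04-fold, 1.03 to 1.05). In all, 51 members were at 1000 RPKM or more in the CD4 library and 56 in the CD8 library, where 71 and 84 of all genes were. Among the 20 genes mutated in Diamond-Blackfan anaemia, an inherited failure of red cell production, 19 were compared, all below 0. Also below 0 were 77 of all 81 compared members and 40.5% of all compared genes. The 19 genes had a median of -0.44, and 1 of them, Rps26, was at least 2-fold higher in CD8. That size was reached by 8 of the 81 members and 3.07% of all compared genes. Under the rescaling 14 of the 19 were below 0, beside 61 of the 81 members and 23.0% of all compared genes.

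**Figure D3:**
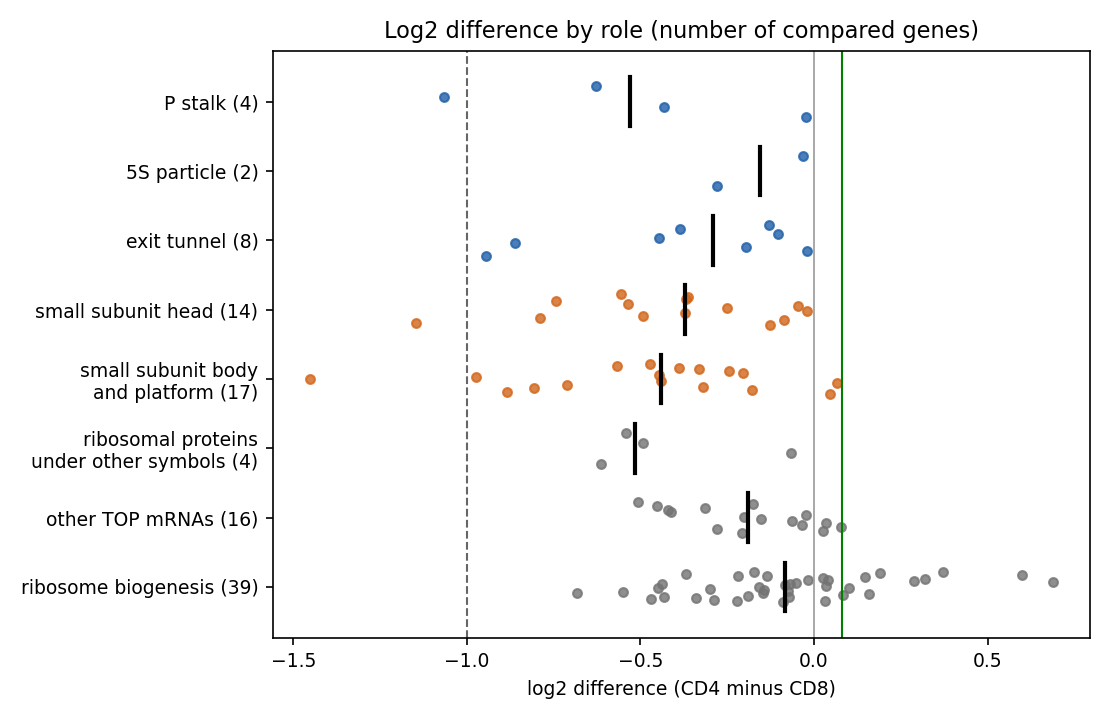
Points give the log2 difference (CD4 minus CD8) of each compared gene by role, with large subunit groups in blue, small subunit groups in orange and genes outside the rule in grey, and black bars at the group medians. The green line is the median of all compared genes at 0.08 and the dashed line a 2-fold difference, and the stalk spans -1.06 (Rplp1) to -0.02 (Rpl12).

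Paralogs were read beside their partners, since several are restricted to other tissues. Rpl22, which mouse thymocytes need for the development of alpha-beta T cells, had 199.8 RPKM in CD4 cells and 229.1 RPKM in CD8 cells (1.15-fold, 1.12 to 1.18), and its paralog Rpl22l1 at 49.99 and 73.2 RPKM (1.46-fold, 1.32 to 1.63). Rpl39 was at 1317 and 1721 RPKM (1.31-fold, 1.29 to 1.33), while Rpl39l, best known from testis, was at 0.353 and 1.31 RPKM, from 7 and 25 reads. Rpl7 was at 2228 and 2619 RPKM (1.18-fold, 1.16 to 1.19), far above Rpl7l1. Rpl10 was at 1375 and 1612 RPKM (1.17-fold, 1.15 to 1.19), and Rpl10l, a testis gene, was listed at 0 in both libraries. Rpl3l, a gene of striated muscle, had 0 reads in CD4 and 1 in CD8. Only the Rps27 pair ran against this order, with Rps27l above Rps27 in both libraries.

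Some members that every ribosome uses were listed far below the rest, in both libraries alike. Rpl26, at the exit tunnel, was listed at 0 in each, Rpl34 stood at 0.341 and 1.98 RPKM, Rpl30 at 2.34 and 3.91 RPKM (1.67-fold, 1.08 to 2.61), and Rps27 at 7.43 and 15.6 RPKM. A low listed value of these genes is therefore not read as low expression. The 8 compared members under 100 RPKM in their mean call for caution, and Rpl34 and Rps27l, which passed the size rule, are among them. Rps4y2, at 0.559 and 1.47 RPKM, is a synonym of Rps4l, a transcribed pseudogene, in the RefSeq table.

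Nearly all members have copies elsewhere in the genome, and the sources used here do not say how reads that fit several places were counted. In the GENCODE M21 annotation, 80 of the 83 members found there shared at least 1 stretch of 50 bases with a transcript of another gene, with a median of 53.6% of such stretches shared. For Rps27 98.6% were shared, for Rpl30 76.4%, for Rpl26 71.3% and for Rpl34 50.6%. For Rps18, the highest member of the small subunit, 86.7% were shared. The level of such genes is uncertain, and the part of shared sequence in the low values was not tested. Across 80 compared members the share of shared stretches and log2(mean RPKM + 1) gave r = 0.16 (Pearson) and rho = 0.15 (Spearman), a description across genes that share 2 libraries. The log2 difference moved little with copies, with a median of -0.38 for the 36 compared genes with a copy that shares over 50% of their stretches and -0.37 for the 44 others. The ratio of the subunits did move, since without the genes with such a copy the summed RPKM of the large over the small subunit was 1.01 in CD4 and 1.02 in CD8. That step left out 24 compared genes of the large and 12 of the small subunit. A ratio of sums moves with such unequal numbers too. The pseudogene row Rpl31-ps12 was at 201.3 and 138.8 RPKM, lower in CD8, while its parent Rpl31 was at 253.0 and 345.2 RPKM, and whether reads were split between them was not tested.

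Many members also carry a snoRNA gene, a guide for ribosomal RNA modification, in an intron. The 30 compared members with one had a median log2 difference of -0.36 and the 50 without one -0.40.

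Genes outside the rule that serve the ribosome were read beside the members. Fau encodes a small subunit protein fused to a ubiquitin-like protein, and was at 750.6 and 1149.9 RPKM (1.53-fold, 1.501 to 1.564). Rpl36al was at 203 and 286 RPKM (1.41-fold, 1.34 to 1.48), and Gnb2l1, the scaffold Rack1 on the small subunit, at 3436 and 3595 RPKM (1.05-fold, 1.04 to 1.06). Of 16 other mRNAs known to carry a TOP motif, 13 were below 0, with a median of -0.19 and none at least 2-fold apart, and 6 were below 0 with the libraries rescaled to the same sum, where 23.0% of all compared genes were, beside 40.5% before it. The elongation factors Eef1a1 (8248 and 8094 RPKM) and Eef2 (1569.8 and 1533 RPKM) were slightly higher in CD4. The interval of CD4 over CD8 was 1.01 to 1.02 for Eef1a1 and 1.02 to 1.03 for Eef2. Tpt1 was 1.42-fold (1.40 to 1.45) and Npm1 1.37-fold (1.34 to 1.40) higher in CD8.

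Ribosome assembly genes lay on both sides of 0. Of 39 genes for making and processing ribosomal RNA and assembling the subunits, 25 were below 0 and 14 above. Of all compared genes 40.5% were below 0. The list had a median of -0.08, beside 0.08 for all compared genes, and none of its genes was at least 2-fold apart. The same rescaling, which moves genes in general toward CD4, gave 12 below and 27 above, where 23.0% of all compared genes were below 0. Ncl, nucleolin, had 44.3 RPKM in CD4 cells and 71.7 RPKM in CD8 cells (1.62-fold, 1.58 to 1.66). Polr1a, the catalytic subunit of RNA polymerase I, went the other way, at 35.6 and 21.7 RPKM (1.64-fold higher in CD4, 1.59 to 1.69). Nop56 (107 and 113 RPKM) and Rrp1 (122 and 120 RPKM), the highest of the list, were near level. The 13 housekeeping genes had a median of -0.03, with Actb at 6133 and 5858 RPKM and Ppia at 536 and 602 RPKM, and Gusb and Tfrc 1.63-fold and 1.60-fold higher in CD8.

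Gene length moved with the difference between the libraries, and ribosomal protein genes are short. The median log2 difference of members was -0.67 under 500 bases (12 genes), -0.36 from 500 to under 1000 bases (46 genes), -0.35 from 1000 to under 2000 bases (18 genes) and -0.20 at 2000 bases or more (5 genes). Other compared genes gave, in the same order, medians of -0.26, -0.12, 0.01 and 0.13. Among other genes with a mean of at least 100 RPKM, small noncoding RNAs left out, the medians were -0.43 (26 genes), -0.17 (71 genes), 0.00 (139 genes) and 0.13 (255 genes). In each class the members' median lay farther toward CD8 than that of these genes. With small noncoding RNAs kept, the median of such genes under 500 bases was -0.72 (42 genes), farther toward CD8 than the members'. Under 500 bases 25% of members were at least 2-fold higher in CD8, beside 21.8% of other compared genes. From 500 to under 1000 bases it was 10.9% beside 4.41%. None of the 8 members at least 2-fold apart was 1000 bases or longer. Of other compared genes 3.11% passed from 1000 to under 2000 bases and 1.95% at 2000 bases or more. Across 81 members the log2 difference and log2 length gave r = 0.27 (Pearson) and rho = 0.32 (Spearman), with r of 0.43 over the large and 0.12 over the small subunit, a description across genes of the same 2 libraries. Part of the lengths could be a multiple of the true one, since 58 of the 81 were at the smallest value the RPKM allow. Whether length or fragment size has a part in the difference was not tested.

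**Figure D4:**
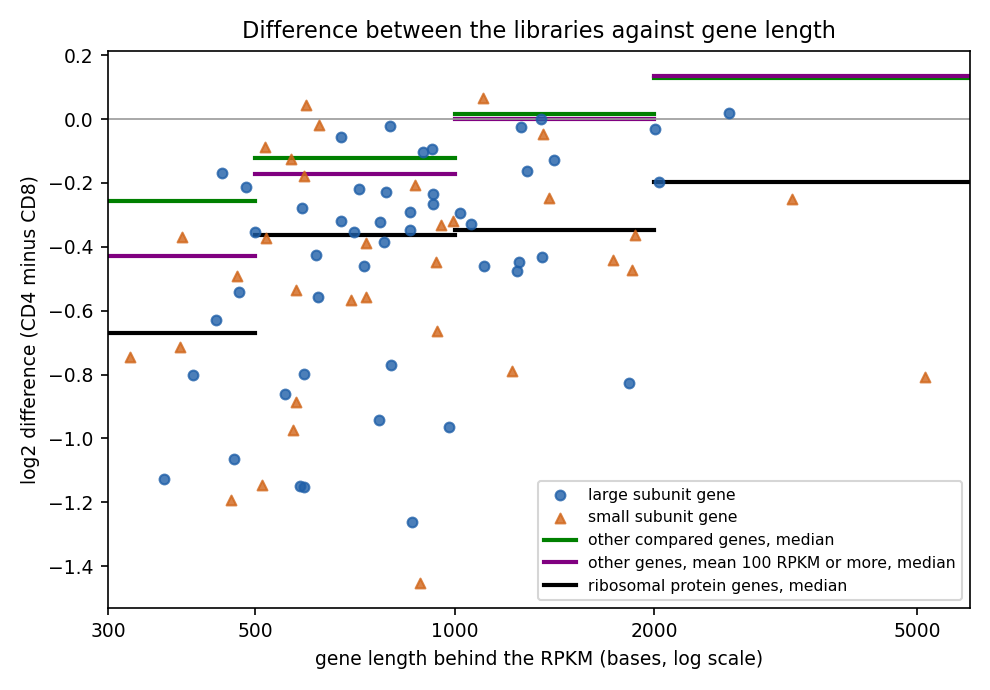
Points give the log2 difference (CD4 minus CD8) of each compared ribosomal protein gene against the gene length behind its RPKM, on a log scale. Horizontal bars give class medians for members (black), other compared genes (green) and other genes with a mean of at least 100 RPKM without small noncoding RNAs (purple), and in each class the black bar, from -0.67 to -0.20, is the lowest.

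The libraries matched their labels by lineage genes. The CD4 library rested on 24741945 reads and the CD8 library on 23853921. Cd4 was at 304.9 RPKM in the CD4 and 8.89 in the CD8 library, and Cd8a at 2.50 and 517.6 RPKM. The 6 T cell markers in the files summed to 2122 and 2156 RPKM. Markers of other cells were low. The 6 B cell markers summed to 3.76 and 30.2 RPKM, of which Cd79b was 2.14 and 28.8, and the 4 NK cell markers summed to 0.142 and 1.496 RPKM. The 7 myeloid markers summed to 10.1 and 10.3 RPKM, and the 3 platelet markers to 1.08 and 0.968. The erythroid markers Hbb-b1 and Hba-a1 were listed at 0, which is not read as absence since Rpl26 was too, and the 5 markers of dividing cells summed to 8.94 and 9.05 RPKM, near level between the libraries. The part of the Cd79b and NK marker signal in the ribosomal protein difference was not tested.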

How the data were processed

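Ribosomal-RNA-depleted total RNA of naive CD4 and CD8 T cells, 1 library each, was prepared with a SOLiD low-input whole-transcriptome method per the labels' protocols. The submitters' processing notes name TopHat and HTSeq and the build mm9 but no versions. The sources used here do not give the annotation, the strand setting or the treatment of reads that fit several places. RPKM values are as the authors deposited them, 1 per gene symbol and row, and symbols on several rows were counted once.

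Whole reads were recovered from the steps of the RPKM, for 12733 of 12735 genes above 0 in both libraries (99.98%) to the precision of the files, 9 decimals or 10 significant digits. At a CD8 total off by 1000 reads, only 1 of 1000 genes tried gave whole reads. The length of a gene was the smallest whole multiple within 15% of a GENCODE M21 coding transcript, and recovered reads summed to 1.02 times the total in each library. A count test was not run, since 1 library per group leaves no spread to estimate. The calculations were tested on simulated data.

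The log2 difference used a pseudocount of 1 RPKM, which understates low genes, and a filter of 1 RPKM in at least 1 library. Folds of single genes are ratios of deposited RPKM. Alternatives were other pseudocounts and filters, centring on the median gene, rescaling to equal sums or to the housekeeping list, and leaving out paralogs, genes on several rows, genes with copies or the highest genes. The members and lists were chosen with earlier results of these data known. Genes were named by rule: in each subunit the 5 highest in mean RPKM, the 5 largest differences in each direction, all at least 2-fold apart or under 1 RPKM in both libraries, the P stalk, 5S particle and paralogs, and up to 4 of each other list. Rpl28, Rpl30, Rps6, Rpl31, Rps4y2 and the marker genes were named after their values were seen, as were genes named only by sequence or for a change of sign on rescaling. Some genes that the rule takes, and 1 alternative, are not reported here. Coordinates are those of the RefSeq GRCm38.p6 table, and no mm9 coordinates were used. Python 3.11.15, numpy 2.4.6, pandas 2.3.3, scipy 1.17.1 and matplotlib 3.10.9 were used.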

Additional observations from a re-analysis of the deposited data

How the results depend on the processing

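Of 72 alternative values of the medians, counts and sums, 57 stayed within the limits set for a like value. The difference between the subunit medians, 0.09, counted as alike in all 12 alternatives. Its limit of 0.1 was wider than the difference itself, and centring cannot change it, so this count does not show a stable difference. The values ran from 0.037 with members of 1000 to under 2000 bases to 0.112 without members on more than 1 row. Rescaling each library to the same sum of RPKM gave medians of -0.14 (large) and -0.23 (small) and 2 large subunit genes at least 2-fold higher in CD8. It moved the share of all 2-fold differences that lay toward CD8 from 56.0% to 35.5%. With 0.1 RPKM added, 5 small subunit genes passed. Without the 6 members on more than 1 row, all of the large subunit, 3 large subunit genes passed. The summed large over small ratio was then 1.28 in CD4 and 1.27 in CD8. Without members with a copy sharing over 50% of their stretches, 2 large subunit genes passed and the ratios were 1.01 and 1.02, by fewer genes. Leaving out the highest member of each subunit gave a ratio of 1.41 in CD8. A 1.5-fold limit gave 13 and 10 genes. Restricted to members from 1000 to under 2000 bases, a choice made after seeing the data, the counts were 0 and 0 of fewer genes. The cause of these changes was not tested beyond the fewer genes and the common shift that the settings themselves bring. Centred on the median of all genes, Rpl3 was at -0.080, Rpl7l1 at -0.061 and Rps23 at -0.015. No paired analysis was possible because each group is 1 library, and for the same reason no replicate could be left out. Depth limits Rpl34, Rpl39l, Rps4y2 and Rpl30, each with fewer than 100 reads in a library, and the intervals of the others leave out all error between animals, sorts and preparations.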
